A study of Homo sapiens with 6 samples.

Results

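The members of the vascular endothelial growth factor (VEGF) family measured here were 4 ligands (VEGFA, VEGFB, VEGFC and PGF), 3 receptor tyrosine kinases (KDR, FLT1 and FLT4) and 2 co-receptors (NRP1 and NRP2). They were picked out by gene symbol, and each of the 9 stood on a single row among 58364 rows of gene expression. The members, the gene lists and the comparisons were chosen with earlier results of these data known, so they are not blind picks. Expression was given as FPKM, the fragments of a gene divided by the length of its transcript and by the mapped fragments of the library, so that levels of different genes can be set side by side per length. A gene was tested where its FPKM averaged 0.5 or more across the 6 libraries. Of the 9 members, 8 passed this filter, as did 15895 rows in all, and VEGFC did not.

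RNA was sequenced from H1, a human embryonic stem cell (hESC) line, at day 8 of hematopoietic differentiation, in 2 libraries of wild-type (WT) cells and 4 libraries labelled MSX2-/-. MSX2 encodes a homeobox transcription factor, and the question was how its loss alters gene expression at the stage when endothelial cells give rise to blood. The MSX2-/- libraries came from 2 clones, 1# and 2#, each grown from a single cell after lentiviral CRISPR/Cas9 targeting of the second exon of MSX2, and each sequenced in replicate numbers 1 and 2, as was WT. A difference shared by both clones therefore rests on 2 edited lines against 1 parental line. The growth protocol of every sample named activin A and BMP4 followed by VEGF and bFGF in the medium. If it holds for these samples, all groups had been exposed to added VEGF protein. That protocol also mentioned HAND1 overexpression, a condition that no sample title or genotype carries. The sample labels named CD31+ cells only for the MSX2-/- libraries, whereas the study's text named them for WT as well.

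PECAM1, the gene of CD31, stood at 258 and 218 FPKM in the WT libraries and at 186 to 230 FPKM in the libraries labelled MSX2-/-, with overlap. MSX2 mRNA was 3.64 and 1.44 FPKM in WT replicates 1 and 2, and it was 18.0 and 5.62 FPKM in 1# and 31.8 and 6.69 FPKM in 2#. The transcript was thus more abundant in the libraries labelled MSX2-/- (limma, adjusted p = 0.309, or 0.0107 once replicate number was a block). An mRNA with a frameshift can still be counted, so this level does not check the labels, and every direction given here rests on them. The FPKM values summed to between 555286 and 617120 per library, and between 13366 and 14222 rows reached 1 FPKM. Read numbers per library are unknown, so no counting interval is given. Libraries of the same replicate number deviated together, and the labels give each number a set letter, F or S, without its meaning. The limma results between genotypes and clones are therefore given both without and with a block for replicate number. The study's methods speak in general of independent experiments, but neither they nor the labels tie the replicate numbers to separate cultures, and the p-values measure only the spread between these libraries.

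VEGF ligands are secreted dimers that bind receptor tyrosine kinases on endothelial cells. VEGFA binds FLT1 and KDR, VEGFB and PGF bind FLT1 and not KDR, and VEGFC binds FLT4 and, once processed, also KDR. KDR carries most of the growth and survival signal, while FLT1 holds VEGFA tightly, signals weakly and is also made as a soluble decoy. The neuropilins NRP1 and NRP2 present VEGF to these kinases and are receptors for class III semaphorins as well. KDR also marks the mesoderm from which blood and endothelium arise.

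Promoter sequence is shown for KDR, FLT1 and PGF, the 3 tested members that lay lower (KDR) or higher (FLT1 and PGF) in all 4 libraries labelled MSX2-/- than in both WT libraries and have an entry among the RefSeq promoters. RefSeq gave promoters for 6 of the 9 members and none for VEGFA, FLT4 and NRP1. The 250 bases before the start are printed 5′ to 3′ on the strand of the gene (minus in each case, build GRCh38.p14), from chr4:55125596-55125845 for KDR, chr13:28495129-28495378 for FLT1 and chr14:74955598-74955847 for the more downstream of 2 starts of PGF. Capitals mark matches on either strand to GGAAG (the core bound by ETS factors), TGACGTCA (the cyclic AMP response element) and GGGCGG (the GC box), and matches may overlap.
KDR: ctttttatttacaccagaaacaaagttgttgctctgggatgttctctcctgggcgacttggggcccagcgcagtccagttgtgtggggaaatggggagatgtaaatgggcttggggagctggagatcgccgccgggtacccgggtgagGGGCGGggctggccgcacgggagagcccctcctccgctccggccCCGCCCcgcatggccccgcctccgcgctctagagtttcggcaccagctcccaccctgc
FLT1: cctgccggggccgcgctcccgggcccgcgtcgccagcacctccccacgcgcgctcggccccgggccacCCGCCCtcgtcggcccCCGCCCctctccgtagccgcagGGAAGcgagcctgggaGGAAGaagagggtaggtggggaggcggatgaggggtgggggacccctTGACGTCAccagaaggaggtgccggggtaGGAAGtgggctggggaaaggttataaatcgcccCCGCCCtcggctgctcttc
PGF: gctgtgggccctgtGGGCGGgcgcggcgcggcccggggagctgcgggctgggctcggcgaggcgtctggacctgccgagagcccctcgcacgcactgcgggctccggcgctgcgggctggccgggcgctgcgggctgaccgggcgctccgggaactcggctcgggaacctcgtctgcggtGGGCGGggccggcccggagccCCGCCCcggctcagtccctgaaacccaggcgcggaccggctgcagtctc
The KDR stretch held 2 GC boxes and no match to the other motifs in capitals. The FLT1 stretch held 3 ETS cores, 1 cyclic AMP response element and 3 GC boxes. The PGF stretch held 3 GC boxes alone, whereas the same length before the more upstream start of PGF held 2 ETS cores and 2 GC boxes. Over 35116 RefSeq promoters of the same length, an ETS core was present in 65.1%, a cyclic AMP response element in 1.65% and a GC box in 42.6%. None of the 3 stretches held TAATT on either strand, a core that homeobox proteins can bind and that 23.1% of the promoters held. The windows of VEGFB, VEGFC, NRP2 and the more upstream start of PGF lacked it as well, and each held a GC box. Neither trait is thus particular to the 3 stretches shown. Guanine and cytosine made up 65.2% of the bases for KDR, 73.2% for FLT1 and 80% for PGF. A match is a description of letters and not of a bound site, and the absence of a match covers only these windows.

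The receptors were far more abundant than the ligands. On the FPKM scale the mean over all 6 libraries was 583 for KDR, 297 for FLT1, 202 for FLT4, 160 for NRP2 and 159 for NRP1, against 21.8 for VEGFB, 21.0 for VEGFA, 8.76 for PGF and 0.303 for VEGFC. KDR ranked 131 of the 58364 rows by its mean and FLT1 ranked 267, whereas VEGFA ranked 4436 and PGF 7670. KDR exceeded FLT1, and FLT1 exceeded FLT4, in 6 of 6 libraries. FLT4, NRP2 and NRP1 were not separated from each other in this order, since FLT4 lay above NRP2 in 3 of 6 libraries and NRP2 above NRP1 in 4 of 6. VEGFB lay above VEGFA in 4 of 6 libraries. VEGFD, a ligand of FLT4 outside the chosen set, reached at most 0.305 FPKM and was listed at 0 in 2# replicate 2.

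**Figure D1:**
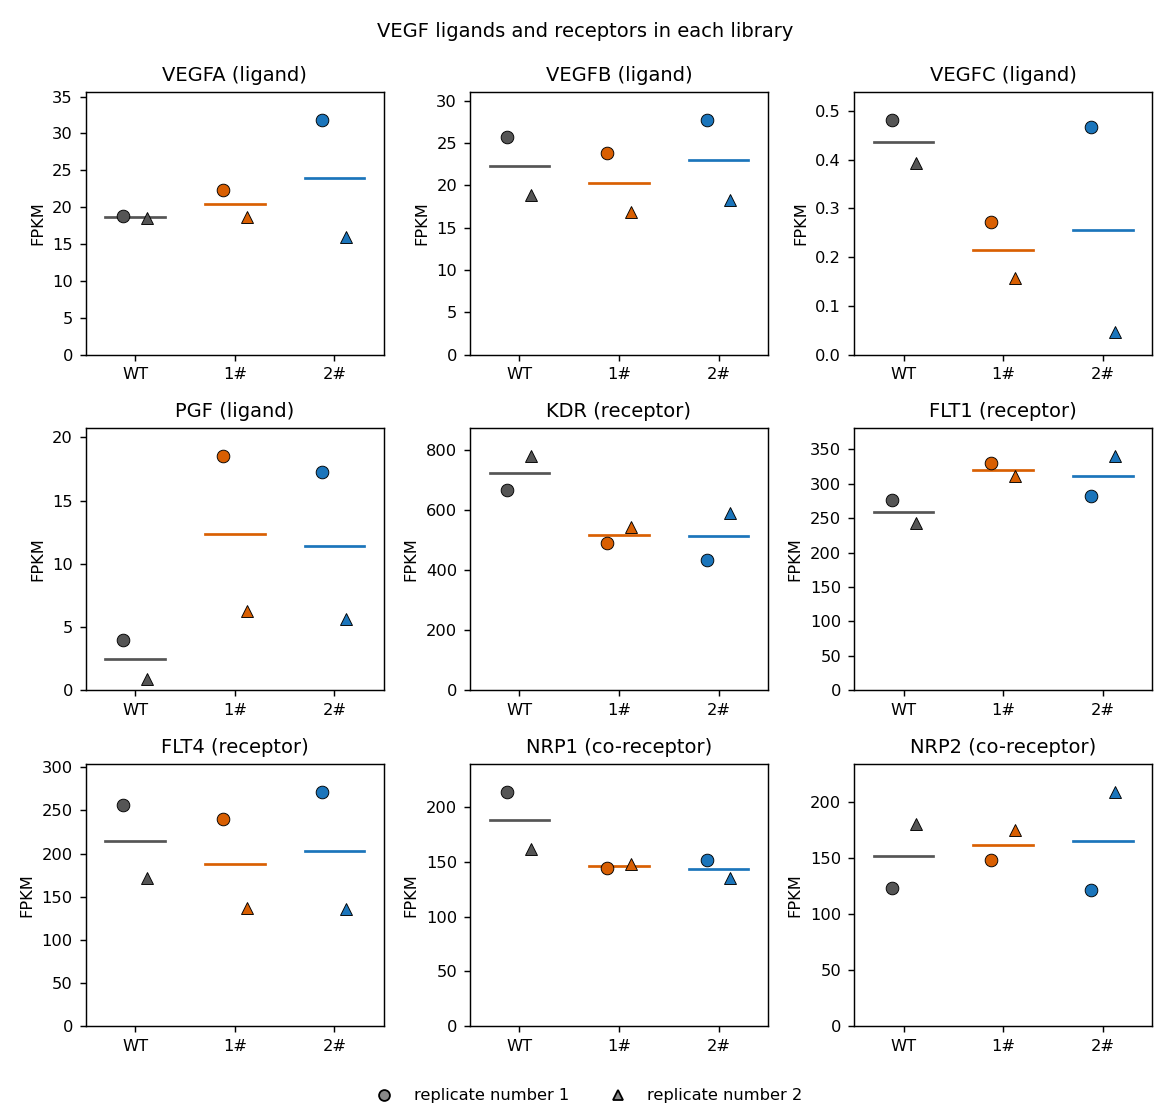
FPKM of each of the 9 members (vertical axis, from 0, a separate scale per panel) in WT, 1# and 2# libraries, with circles for replicate number 1, triangles for replicate number 2 and a line at the mean of each pair. PGF lies at 3.99 and 0.910 in WT and between 5.62 and 18.5 in the clones, KDR lies at 434 to 590 in the clones below 666 and 779 in WT, and the circles separate from the triangles for VEGFB, FLT4 and NRP2.

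Of the tested members, 0 of 8 passed an adjusted p of 0.05 for MSX2-/- against WT in limma without the block, where 1.28% of all tested rows did (153 higher, 0.963%, and 51 lower, 0.321%). At an unadjusted p under 0.05 there were 4 members, PGF, KDR, FLT1 and NRP1, beside 11.8% of all rows. With the block, 1 member rose (PGF) and 1 fell (KDR), so 2 of 8, beside 9.85% of all rows in either direction, 6.11% higher and 3.74% lower. The median log2 fold change of the 8 tested members was 0.03, and that of all tested rows was 0.01. In 2 members, PGF and FLT1, all 4 libraries labelled MSX2-/- lay above both WT libraries, and in another 2, KDR and NRP1, all lay below, beside 12.1% and 9.19% of all tested rows.

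**Figure D2:**
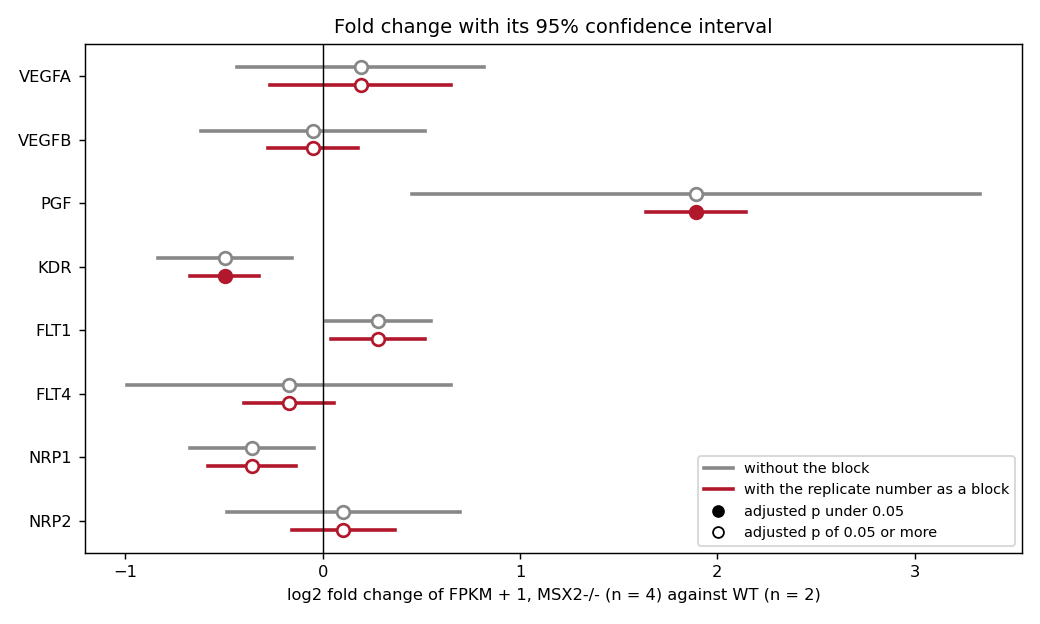
Log2 fold change of FPKM + 1 (horizontal axis), MSX2-/- (n = 4) against WT (n = 2), for the 8 tested members, with bars for the 95% confidence interval in limma without (grey) and with (red) the block, and filled points where the adjusted p was under 0.05. Only PGF (1.89) and KDR (-0.50) have filled points, and only with the block.

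Among the ligands, PGF (placental growth factor) had the largest log2 fold change of the 8 tested members. PGF was 3.99 and 0.910 FPKM in WT replicates 1 and 2, 18.5 and 6.26 FPKM in 1#, and 17.2 and 5.62 FPKM in 2#. Every library labelled MSX2-/- was above both WT libraries, and replicate 1 was above replicate 2 in WT and in each clone. PGF averaged 11.9 FPKM in MSX2-/- (SD 6.92, n = 4), 4.87 times the WT average of 2.45 FPKM (SD 2.17, n = 2). The log2 fold change on the scale of FPKM + 1, which understates the change of a low gene, was 1.89. Its SE was 0.60 without the block (limma, adjusted p = 0.271) and 0.10 with it (limma, adjusted p = 0.00111). Against its same-numbered WT library, PGF was 4.65 and 6.88 times higher in 1# replicates 1 and 2, and 4.33 and 6.18 times higher in 2#.

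VEGFA, the principal ligand of KDR, did not pass the test. It was 18.8 and 18.5 FPKM in WT replicates 1 and 2, 22.3 and 18.7 FPKM in 1#, and 31.8 and 16.0 FPKM in 2#. The groups overlapped, and 2# held both the highest and the lowest library. The log2 fold change was 0.19, with a 95% confidence interval of -0.43 to 0.82 in limma without the block (adjusted p = 0.889) and of -0.27 to 0.65 with it (adjusted p = 0.573). Differences of VEGFA within these bounds were not resolved by these libraries.

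VEGFB, a ligand of FLT1, was 25.6 and 18.9 FPKM in WT, 23.8 and 16.8 FPKM in 1#, and 27.7 and 18.2 FPKM in 2#, with replicates 1 all above replicates 2. Its log2 fold change was -0.05, with a 95% interval of -0.62 to 0.52 in limma without the block (adjusted p = 0.978) and of -0.28 to 0.18 with it (adjusted p = 0.786). VEGFC was at most 0.481 FPKM in any library and was left out of the test by the filter. Its values were 0.481 and 0.393 FPKM in WT, 0.271 and 0.158 FPKM in 1#, and 0.467 and 0.0453 FPKM in 2#, so the groups overlapped although each clone library lay below the WT library of its number. With no filter on low values its log2 fold change was -0.23 (limma, adjusted p = 0.717 without and 0.374 with the block).

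The 4 ligands together summed to 48.9 and 38.7 FPKM in WT, 64.8 and 41.9 FPKM in 1#, and 77.2 and 39.9 FPKM in 2#. PGF made up 8.14% and 2.35% of this sum in WT, 28.6% and 14.9% in 1#, and 22.3% and 14.1% in 2#. The lowest PGF share of ligand mRNA in a clone thus exceeded the highest in WT.

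Among the receptors, KDR (VEGF receptor with the main signalling role) was lower in the libraries labelled MSX2-/-. KDR was 666 and 779 FPKM in WT replicates 1 and 2, 489 and 541 FPKM in 1#, and 434 and 590 FPKM in 2#. All 4 libraries lay below both WT libraries, and replicate 2 was above replicate 1 in each group. KDR averaged 514 FPKM in MSX2-/- (SD 67.6, n = 4), 0.711 times the WT average of 723 FPKM (SD 79.3, n = 2). The log2 fold change was -0.50, with an SE of 0.14 without the block (limma, adjusted p = 0.213) and 0.07 with it (limma, adjusted p = 0.0112). The blocked call was lost when no filter on low values was applied (limma, adjusted p = 0.0694). Against the WT library of its own replicate number, KDR stood at 0.733 and 0.695 times WT in 1# and at 0.651 and 0.758 times WT in 2#.

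FLT1, which binds VEGFA, VEGFB and PGF, had the opposite sign and did not pass the test. It was 276 and 243 FPKM in WT, 330 and 311 FPKM in 1#, and 282 and 340 FPKM in 2#. The groups did not overlap, although 2# replicate 1 exceeded WT replicate 1 by a factor of only 1.02. The log2 fold change was 0.28, with a 95% interval of 0.01 to 0.55 in limma without the block (adjusted p = 0.387) and of 0.04 to 0.52 with it (adjusted p = 0.135). The value is a sum over transcripts of the gene, so membrane-bound and soluble FLT1 were not separated.

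FLT4, the receptor of VEGFC and a marker of lymphatic and early venous endothelium, was 256 and 172 FPKM in WT, 240 and 137 FPKM in 1#, and 271 and 136 FPKM in 2#. Its groups overlapped, and the replicate numbers did not. The log2 fold change was -0.17, with a 95% interval of -0.99 to 0.65 in limma without the block (adjusted p = 0.940) and of -0.40 to 0.06 with it (adjusted p = 0.311). FLT4 thus ranged from 136 to 271 FPKM, while its ligands VEGFC and VEGFD were each below 0.5 FPKM in every library.

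Of the co-receptors, NRP1 was 214 and 162 FPKM in WT, 145 and 148 FPKM in 1#, and 152 and 136 FPKM in 2#. The 4 libraries labelled MSX2-/- lay within a narrow range below both WT libraries. The log2 fold change was -0.36, with an SE of 0.13 without and 0.09 with the block, and neither fit passed the threshold (limma, adjusted p = 0.340 and 0.0617). NRP2, the partner of FLT4 in lymphatic endothelium, was 123 and 181 FPKM in WT, 148 and 175 FPKM in 1#, and 122 and 209 FPKM in 2#. Its groups overlapped, and its log2 fold change was 0.10, with a 95% interval of -0.49 to 0.69 in limma without the block (adjusted p = 0.951) and of -0.16 to 0.36 with it (adjusted p = 0.597).

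Within a replicate number, 5 of the 9 members lay on the same side of WT in all 4 libraries. PGF and FLT1 were higher, and KDR, NRP1 and VEGFC were lower. Among the 8 tested members this was 4, beside 44.9% of all tested rows. VEGFA, VEGFB, FLT4 and NRP2 had at least 1 library on each side.

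**Figure D3:**
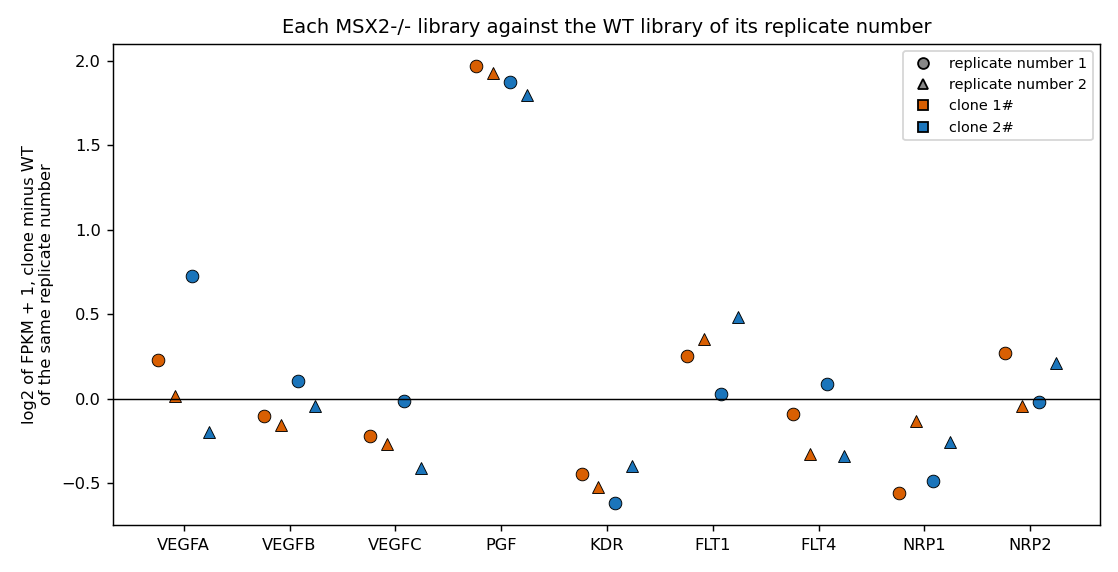
Difference on the scale of log2(FPKM + 1) (vertical axis) between each library labelled MSX2-/- and its same-numbered WT library, for the 9 members, with colours for clones 1# and 2# and symbols for the replicate number. PGF lies between 1.79 and 1.97 in all 4 libraries and KDR between -0.62 and -0.40, whereas the 4 values of VEGFA run from -0.20 to 0.73.

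Each clone was also compared with WT in a fit of 3 groups. Without the block, 0 of 8 members passed in either clone, where 1 row in all passed in each, and 2 members in 1# (PGF and KDR) and 1 in 2# (KDR) had an unadjusted p under 0.05, beside 7.37% and 7.43% of all rows. With the block, PGF rose in 1# (log2 fold change 1.95, limma, adjusted p = 0.00987) and in 2# (1.83, adjusted p = 0.00874), beside 3.46% of all rows called in 1# and 3.71% in 2#. Both PGF calls were lost with the block and no filter on low values (limma, adjusted p = 0.169 in 1# and 0.155 in 2#). KDR gave nearly the same size in both clones, -0.48 in 1# (limma, adjusted p = 0.0582) and -0.51 in 2# (adjusted p = 0.0503), and missed the threshold in each. In 2# against 1#, 0 of 8 members passed in limma without or with the block, as did 0 of all rows. At an unadjusted p under 0.05 there were 0 members in either fit, beside 1.42% of all rows without and 3.33% with the block. The 95% interval of the difference between clones with the block was -0.45 to 0.22 on the log2 scale for PGF, -0.25 to 0.21 for KDR, -0.35 to 0.26 for FLT1 and -0.43 to 0.71 for VEGFA. Without the block it was -1.99 to 1.76 for PGF, -0.48 to 0.43 for KDR, -0.41 to 0.32 for FLT1 and -0.68 to 0.96 for VEGFA.

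More members differed between replicate numbers than between genotypes. With genotype in the fit, 5 of 8 members passed for replicate 2 against replicate 1 (2 higher and 3 lower), beside 34.6% of all rows (15.6% higher and 18.9% lower). Lower in replicate 2 were PGF (log2 difference -1.42), FLT4 (-0.79) and VEGFB (-0.49), and higher were NRP2 (0.52) and KDR (0.27) (limma, adjusted p from 0.000983 to 0.0257). FLT4 averaged 256 FPKM in the 3 libraries of replicate 1 and 148 FPKM in those of replicate 2, without overlap. For FLT4, VEGFB and NRP2 this difference was larger in size than that between genotypes, a contrast that was not itself tested. The difference between genotypes did not itself differ between replicate numbers for any member past the threshold (limma interaction, 0 of 8, beside 0.0189% of all rows), and 1 member, NRP1, had an unadjusted p under 0.05, beside 11.4% of all rows.

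Ratios of 2 members inside a library, after adding 0.1 FPKM to each, were next compared for 5 pairs of members by a two-sided exact permutation test with 15 possible arrangements of the labels, which cannot give a p below 0.0667. FLT1 per KDR was 0.415 and 0.312 in WT, 0.675 and 0.574 in 1#, and 0.650 and 0.576 in 2#. This test does not use the replicate numbers, so the differences within each number are given as well. The ratios of single libraries are given with nothing added. For FLT1 per KDR the groups did not overlap, and the mean log2 ratio was 0.78 higher in MSX2-/- (exact permutation p = 0.0667, adjusted over the 5 ratios 0.111), by 0.68 within replicate number 1 and 0.88 within replicate number 2. PGF per VEGFA was 0.212 and 0.0492 in WT and 0.335 to 0.832 in MSX2-/-, 2.16 higher on the log2 scale (exact permutation p = 0.0667, adjusted 0.111), by 1.64 within replicate number 1 and 2.68 within replicate number 2. VEGFC per VEGFA differed by -1.04 on the log2 scale (exact permutation p = 0.0667, adjusted 0.111), with VEGFC under 0.5 FPKM throughout, and its size depended on the amount added. It was -1.53 with nothing added and -0.42 with 1 FPKM added (exact permutation p = 0.133 for each). FLT4 per KDR (exact permutation p = 0.533) and NRP2 per NRP1 (exact permutation p = 0.4) overlapped between the groups. Within each replicate number, however, both clones lay above WT in either ratio, by a mean log2 difference of 0.53 and 0.12 for FLT4 per KDR and of 0.65 and 0.28 for NRP2 per NRP1 in numbers 1 and 2, which was not tested.

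**Figure D4:**
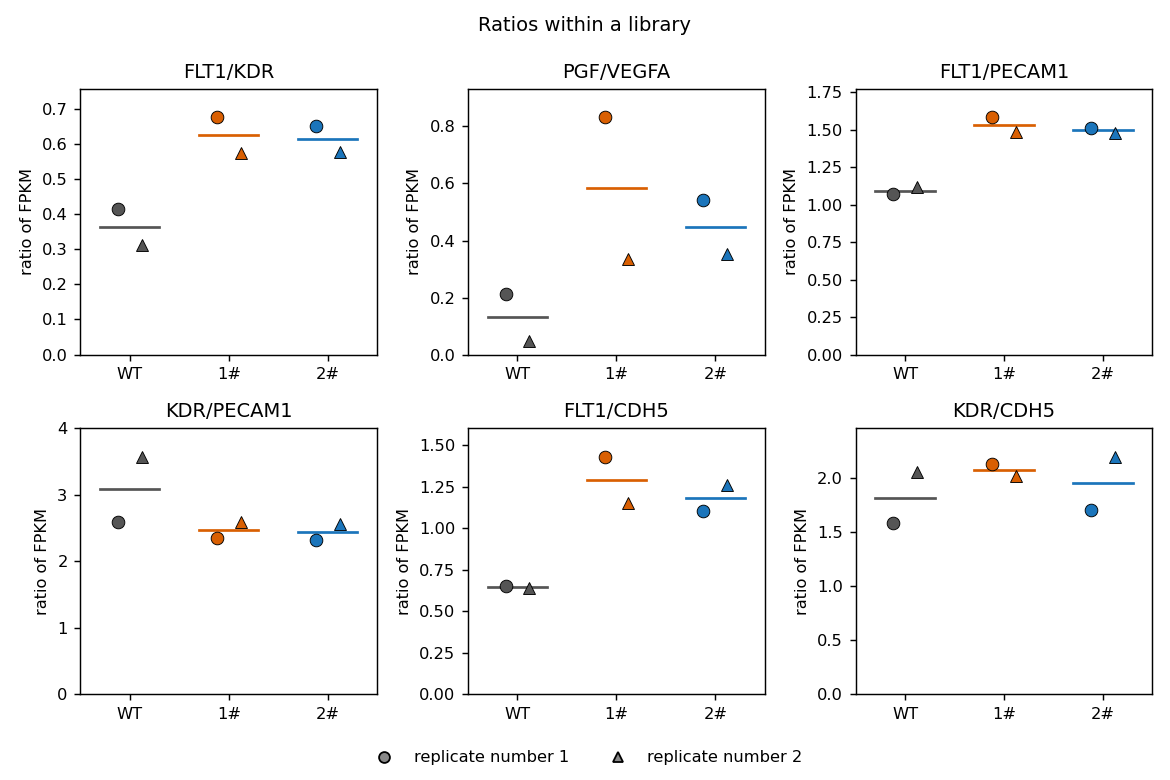
Ratios of FPKM values within a library (vertical axes, from 0) in WT, 1# and 2#, with circles for replicate number 1, triangles for replicate number 2 and a line at the mean of each pair. FLT1 per KDR, PGF per VEGFA, FLT1 per PECAM1 and FLT1 per CDH5 separate WT from both clones, and KDR per CDH5 does not.

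The 3 receptor kinases together summed to 1199 and 1193 FPKM in WT, 1058 and 989 FPKM in 1#, and 987 and 1066 FPKM in 2#. KDR made up 55.6% and 65.2% of this sum in WT, 46.2% and 54.8% in 1#, and 43.9% and 55.4% in 2#. FLT1 made up 23.1% and 20.3% in WT and between 28.6% and 31.9% in MSX2-/-. The receptor mRNA therefore held relatively more FLT1 and less KDR in the clones, within either replicate number.

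PECAM1 and CDH5 (VE-cadherin, the adhesion protein of endothelial junctions and a partner of KDR) were used as endothelial denominators, a choice made after their values were seen. FLT1 per PECAM1 was 1.07 and 1.11 in WT and 1.48 to 1.58 in MSX2-/-, without overlap. KDR per PECAM1 was 2.58 and 3.57 in WT and 2.33 to 2.59 in MSX2-/-, lower within each replicate number, with 1# replicate 2 just above WT replicate 1. CDH5 was itself lower in the clones, and KDR per CDH5 was 1.58 and 2.05 in WT and 1.70 to 2.19 in MSX2-/-, with overlap. FLT1 per CDH5 was 0.653 and 0.640 in WT and 1.10 to 1.43 in MSX2-/-. NRP1 per PECAM1 was 0.83 and 0.74 in WT and 0.59 to 0.82 in MSX2-/-, with overlap but lower within each replicate number. NRP1 per CDH5 was 0.51 and 0.43 in WT and 0.50 to 0.63 in MSX2-/-, with overlap but higher within each replicate number. Within a replicate number, NRP1 was thus lower in the clones per PECAM1 but not per CDH5, which was not tested. In bulk RNA, fewer cells of a type and less RNA per cell cannot be told apart.

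Beside the counts of each list that follow, 1.28% of all tested rows passed without the block. With the block 9.85% did, 6.11% higher and 3.74% lower. Of 14 endothelial markers, 0 rose and 3 fell without the block, CLDN5, CDH5 and TIE1, and with it 1 rose and 7 fell. CLDN5, a tight junction protein, was 115 and 96.0 FPKM in WT and 17.1 to 28.2 FPKM in MSX2-/- (log2 fold change -2.28, limma, adjusted p = 0.0121). TIE1, an orphan receptor kinase of endothelium, was 505 and 446 FPKM in WT and 315 to 323 FPKM in MSX2-/- (-0.58, adjusted p = 0.0382). The list had a median log2 fold change of -0.49, and its summed level overlapped, with 3057 and 3754 FPKM in WT and 2167 to 3258 FPKM in MSX2-/-. Within each replicate number, however, this sum was lower in both clones than in WT, which was not tested. The marker that rose with the block was ENG, at 90.9 and 91.0 FPKM in WT and 129 to 160 FPKM in MSX2-/-. Its log2 fold change was 0.70 (limma, adjusted p = 0.0524 without and 0.00977 with the block). CD34 had a log2 fold change of 0.04, and both were named after their values were seen. KDR, with a log2 fold change of -0.50, lay near the median of the list. It was lower together with CLDN5, CDH5 and TIE1 but not with every marker of the list. The part of the endothelial share of cells in the KDR difference was not tested.

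Markers of other cell types also differed. Of 13 tested hematopoietic markers of 14, 5 rose and 0 fell without the block (GYPB, KLF1, GATA1 and NFE2 among them), and 10 rose with it. Of 10 tested mesenchymal markers of 12, 3 rose and 0 fell (COL1A1, TAGLN and TBX20), and 5 rose with the block. COL1A2 and COL3A1 of this list, named after their values were seen, passed neither fit. Their log2 fold changes were -0.07 and -0.54 (limma with the block, adjusted p = 0.639 and 0.405). Of 8 tested pluripotency and epithelial markers of 10, 0 passed without the block and 3 rose with it, EPCAM and CDH1 among them, and 0 of 8 endodermal markers, such as APOA1 and TTR, passed either fit. The summed level of the hematopoietic list was 152 and 180 FPKM in WT and 355 to 492 FPKM in MSX2-/-, and that of the mesenchymal list 295 and 347 FPKM against 519 to 603 FPKM. In the mesenchymal sum, COL1A1 was 27.7 and 55.9 FPKM in WT and 193 to 206 FPKM in MSX2-/-. TAGLN was 15.8 and 33.1 FPKM against 88.3 to 94.2 FPKM, whereas COL1A2 was 144 and 148 FPKM against 130 to 156 FPKM. The sums were 68.1 and 76.6 FPKM against 98.1 to 119.8 FPKM for the pluripotency and epithelial list, and 53.1 and 80.6 FPKM against 13.6 to 252 FPKM for the endodermal list, the latter with overlap. No marker was at 0 in all libraries. The part of these cell types in the differences of PGF, KDR, FLT1 and NRP1 was not tested.

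Downstream of the receptors, a list of 41 signalling genes was tested in full. Of these, 2 rose and 0 fell without the block (6 and 2 with it), and the median log2 fold change was -0.04, beside 0.01 for all rows. SH2D2A, an adaptor that binds activated KDR and is also known from T cells, was 2.27 and 2.66 FPKM in WT and 11.8 to 18.6 FPKM in MSX2-/- (log2 fold change 2.19 ± 0.23 (SE), limma, adjusted p = 0.0152). NFATC1, a calcium-dependent transcription factor that VEGF activates, was 29.7 and 35.0 FPKM in WT and 56.4 to 70.9 FPKM in MSX2-/- (0.94 ± 0.15, adjusted p = 0.0410). Both were named because they passed this fit, so their higher level in 4 of 4 libraries is not further support.

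Of 24 surface partners and trafficking genes of the receptors, 0 rose and 1 fell without the block, and 1 rose and 8 fell with it. The median log2 fold change was -0.23. CDH5 was 423 and 379 FPKM in WT and 230 to 269 FPKM in MSX2-/- (-0.65 ± 0.10, limma, adjusted p = 0.0453). With the block alone, EPHB4 and its ligand EFNB2, which takes part in VEGF receptor uptake, fell (log2 fold change -0.57 for each, limma, adjusted p = 0.00542 and 0.0209). The phosphatase PTPRB and the angiopoietin receptor TEK fell as well (-0.77 and -0.84, limma with the block, adjusted p = 0.0104 and 0.0170). The gene of this list that rose with the block was SDC4. Its log2 fold change was 0.90 (limma, adjusted p = 0.0549 without and 0.00854 with the block). EPHB4, EFNB2, PTPRB, TEK and SDC4 were named after their values were seen, and the list shares CDH5, TEK and MMRN2 with the endothelial markers.

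Among 20 tested genes of 23 that VEGF is known to induce in endothelial cells, 2 rose and 0 fell without the block (6 and 2 with it). Their median log2 fold change was 0.54, beside 0.01 for all rows. ESM1, a secreted proteoglycan of endothelial tip cells, was 5.34 and 10.03 FPKM in WT, 208 and 162 FPKM in 1#, and 184 and 139 FPKM in 2# (4.37 ± 0.26, limma, adjusted p = 0.00535). APLN, the apelin peptide also made by tip cells, was 1.36 and 2.75 FPKM in WT and 10.1 to 24.7 FPKM in MSX2-/- (2.42 ± 0.37, limma, adjusted p = 0.0394). Not every gene of the list moved the same way, since DLL4, the Notch ligand of tip cells, fell with the block (-0.37, limma, adjusted p = 0.0125), as did STC1 (-0.67, adjusted p = 0.0327), both named after their values were seen.

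The neuropilins share semaphorin signalling with plexins, and 8 of 12 genes of this list were tested. PLXNA2 rose from 5.81 and 10.5 FPKM in WT to between 21.1 and 32.3 FPKM in MSX2-/- (log2 fold change 1.65, limma, adjusted p = 0.0410). PLXNA1 rose from 10.08 and 10.01 FPKM to between 20.3 and 23.0 FPKM (1.03, limma, adjusted p = 0.0205). Both are signalling partners of NRP1 and NRP2, and 0 of the list fell, with a median log2 fold change of 0.09.

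Of 9 genes of oxygen sensing, which controls VEGFA transcription, 0 passed without the block. With it 1 rose and 1 fell, beside 6.11% and 3.74% of all tested rows. EPAS1, the hypoxia-inducible factor most associated with endothelium, was 47.8 and 56.3 FPKM in WT and 63.2 to 90.8 FPKM in MSX2-/- (0.57, limma, adjusted p = 0.285 without and 0.0102 with the block). HIF3A was 35.8 and 14.8 FPKM in WT, 27.5 and 9.17 FPKM in 1#, and 29.3 and 9.12 FPKM in 2# (-0.48, adjusted p = 0.877 without and 0.0350 with the block). The median was -0.14.

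Among 10 genes for the processing of VEGFC and VEGFD and for lymphatic identity, 7 were tested and 0 passed without the block. With it 1 rose, beside 6.11% of all tested rows. PDPN, a membrane glycoprotein of lymphatic endothelium and of other cells, was 0.388 and 0.566 FPKM in WT and 1.26 to 2.64 FPKM in MSX2-/- (0.97, limma, adjusted p = 0.166 without and 0.0364 with the block). PROX1, which sets lymphatic identity, was 2.21 and 1.98 FPKM in WT and 2.70 to 3.22 FPKM in MSX2-/- (0.31, limma, adjusted p = 0.541 without and 0.194 with the block). LYVE1, a lymphatic marker named after its values were seen, went the other way. It was 1.28 and 0.758 FPKM in WT and 0.205 to 0.673 FPKM in MSX2-/- (-0.52, limma, adjusted p = 0.408 without and 0.181 with the block).

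The platelet-derived growth factors are the closest relatives of the VEGF ligands, and their receptors resemble the VEGF receptors in structure. A list of 12 genes held these factors and their receptors, with the kinases KIT, CSF1R and FLT3 and the ligands of those kinases. Of this list 11 genes were tested, and 1 rose without the block and 3 with it. PDGFB, the endothelial ligand that recruits pericytes, was 16.2 and 24.0 FPKM in WT, 73.9 and 79.9 FPKM in 1#, and 60.2 and 82.5 FPKM in 2# (log2 fold change 1.85 ± 0.20, limma, adjusted p = 0.0152). PDGFA, another ligand, and PDGFRB, the receptor of PDGFB, named after their values were seen, passed with the block alone (1.38 and 1.36, limma, adjusted p = 0.00446 and 0.0174). None of the list fell in either fit.

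**Figure D5:**
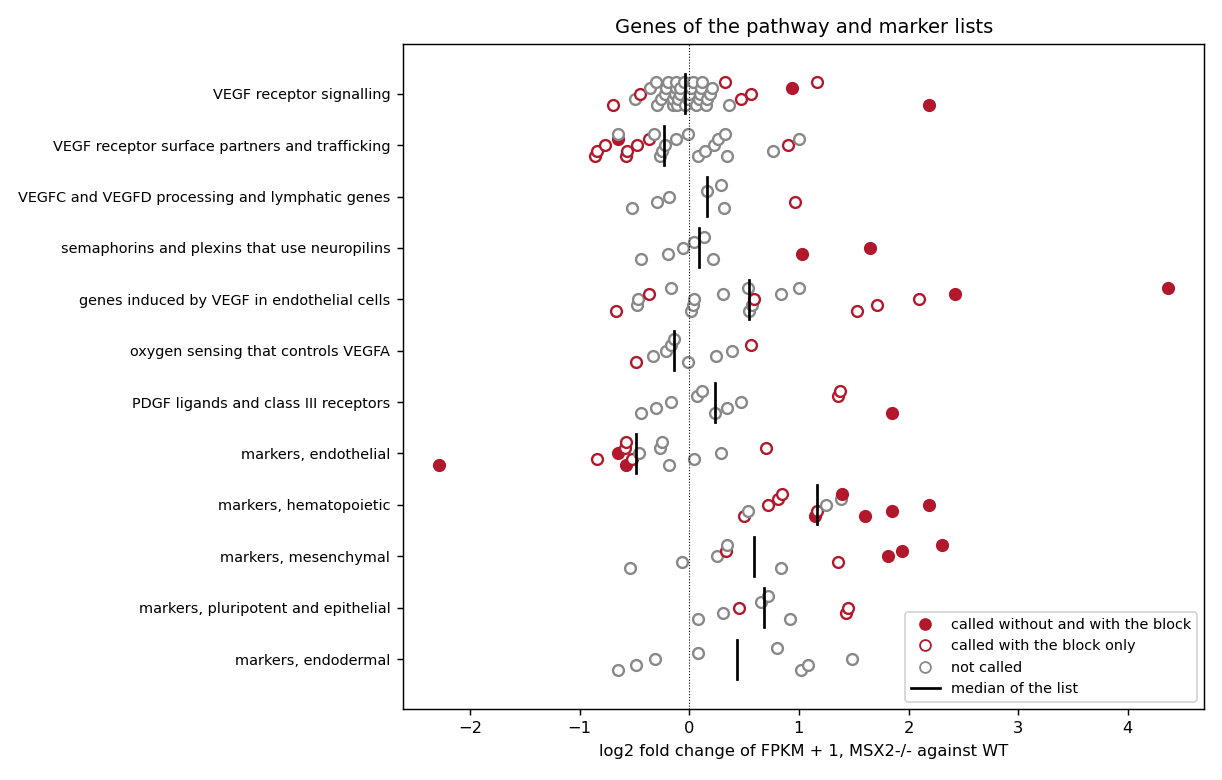
Log2 fold change of FPKM + 1 (horizontal axis), MSX2-/- against WT, for each tested gene of the 12 pathway and marker lists, with a vertical bar at the median of each list, filled points for genes called in both fits and open red points for those called with the block alone. ESM1 lies farthest to the right at 4.37, CLDN5 farthest to the left at -2.28, and the list of VEGF receptor signalling centres on 0 with a median of -0.04.

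For each member, the 3 genes with the most similar pattern were sought among 9546 genes averaging 5 FPKM or more, by Pearson's r on log2(FPKM + 1) over the 6 libraries. The points are only 6 libraries, which share replicate numbers and a WT line, and r is given as a description without a test. The pattern of PGF was nearest to VWA1 (r = 0.994), C22orf39 and SNHG7. VWA1, an extracellular matrix protein, was 10.5 and 6.43 FPKM in WT, 28.0 and 14.99 FPKM in 1#, and 26.4 and 14.99 FPKM in 2#. KDR was nearest to DCTN1 (r = 0.996), LIG1 and NDUFAF3, FLT1 to CERK (r = 0.993), SUCLG2 and ETFB, and NRP1 to AHR (r = 0.994), ZSWIM6 and LRCH1. Near FLT4 were ARHGEF10L (r = 0.998) and PARD6G. VEGFB was nearest to ERP29 (r = 0.998), ZMYM3 and PALM, NRP2 to NDUFAF5 (r = 0.997), TXNRD1 and PSMD2, and VEGFA to TMEM134 (r = 0.983), COL9A2 and PIGL. The patterns around FLT4, VEGFB and NRP2 separate the replicate numbers, as the members themselves do.

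VEGFA, VEGFC, KDR, NRP1 and NRP2 each overlap an antisense gene in GENCODE 29, and the use of strand in counting is not given in the sources used here, so reads of the gene and its partner cannot be told apart. The antisense partners reached at most 0.895 FPKM (AC007362.1 beside NRP2) and 0.470 FPKM (AC111194.2 beside KDR).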

How the data were processed

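RNA-seq of 6 libraries was analysed. The authors deposited FPKM values, unpooled, with 1 column per library. The series text names TopHat and Cufflinks, whereas the submitters' processing notes name BWA, Bowtie, RSEM and build hg19; the role of each tool, the annotation and use of strand are not given in the sources used here. One line of headings without values was left out. FPKM is not a count, so limma 3.58.1 (R 4.3.3, empirical Bayes with a mean-variance trend) was run on log2(FPKM + 1), a pseudocount of 1, for the 15895 rows with a mean of at least 0.5, with Benjamini-Hochberg adjustment over all rows and a threshold of 0.05. The script was tested on simulated data. Replicate numbers 1 and 2 were taken to pair the libraries, because the differences of replicate 2 from replicate 1 correlated across 15895 genes between WT and 1# (r = 0.51), WT and 2# (0.54) and 1# and 2# (0.64). Clones were named as in the columns of the table, since the labels number them differently. Members, gene lists and comparisons were chosen with earlier results of these data known. From each list the text names the genes that passed without the block, at most 6, or else the 2 with the largest change and a mean of at least 1. A few gene names that this rule gives are left out. Alternatives were the block, another pseudocount (0.1), no filter or a mean of at least 1, rescaled libraries, 3 groups, no trend and leaving out each library. In the blocked fit only the MSX2-/- libraries were left out in turn. Promoters were taken from RefSeq (GRCh38.p14), and no coordinate of the deposited table was used. Figures were drawn with matplotlib 3.10.9.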

Additional observations from a re-analysis of the deposited data

How the results depend on the processing

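For MSX2-/- against WT, 0 members passed without the block under every other alternative, including leaving out each of the 6 libraries. With the replicate block 2 passed (PGF and KDR), also when each of the 4 MSX2-/- libraries was left out (2, 2, 2 and 2). The WT libraries were not left out in the blocked fit, so how far these calls hinge on either was not tested. With the block and no filter 1 passed (PGF). The blocked fits of the clones gave 2 calls, PGF in each, and 0 with the block and no filter, and the list genes called went from 18 to 55 with the block. Between replicate numbers, 3 members passed with no filter. Leaving out 1 library without the block moved PGF from 1.20 (without WT replicate 2) to 2.58 (without WT replicate 1). It reversed the sign of 3 members: VEGFB to 0.16, 0.06 and 0.02 (without WT replicate 1, 1# replicate 2 and 2# replicate 2), FLT4 to 0.11 (without WT replicate 1) and NRP2 to -0.17 and -0.02 (without WT replicate 1 and 2# replicate 2). Their ranges were -0.26 to 0.16, -0.46 to 0.11 and -0.17 to 0.38, and the cause was not tested. With the block, leaving out any 1 of the 4 MSX2-/- libraries reversed the sign of none of these 3 members. The block changed no other member's call. Over all rows, the 204 calls without the block became 1566 with it, 125 with no filter, 6 with 3 groups and between 11 and 76 when any 1 of the 6 libraries was left out. With 2 WT libraries and unknown read numbers, differences of the size seen for VEGFA, FLT4 and NRP2 could not be resolved.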
